A study of Mus musculus with 4 samples.

Results

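The 10 genes described here encode transcription factors that set the identity of sensory neurons: Isl1, Pou4f1, Pou4f2, Pou4f3, Runx1, Runx3, Prdm12, Drgx, Tlx3 and Etv1. They were taken by name from the 48431 genes of the deposited expression table, where 9 stand under these symbols and Drgx stands under its older symbol Prrxl1. The RNA came from dorsal root ganglia (DRG), which hold the cell bodies of the body's somatosensory neurons, of male wild-type mice with the strain label SW. All 4 libraries came from mice given methylglyoxal (MGO), a reactive by-product of glycolysis, at 2 mg/kg intraperitoneally for 6 days. There is 1 group and no vehicle group was analysed here, so no value below is a response to MGO. Whether each library is a separate animal is not stated in the labels, so p-values cover only library-to-library spread, and that spread may be technical.

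Sensory neurons of the ganglia arise from the neural crest and acquire their subtypes, such as nociceptors, touch receptors and proprioceptors, under a cascade of transcription factors. The LIM homeodomain factor ISL1 and the POU homeodomain factor POU4F1 (BRN3A) act in nearly all of these neurons, ending neurogenesis and opening the subtype programmes. PRDM12, RUNX1, TLX3 and DRGX are known for nociceptors and itch neurons, and RUNX3 and ETV1 for proprioceptors, the neurons that sense muscle stretch.

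Values are CPM, reads per gene scaled to a total of 1000000 in each library. The libraries read the 3′ ends of transcripts, so a transcript does not gain reads with its length and CPM of different genes were compared directly. The low values of the table imply 5576834 to 10138766 reads per library, and 3 reads equal 0.296 to 0.538 CPM. The ganglion's neuronal markers were present, with 10 of 10 pan-neuronal genes detected and a summed level of 11756 to 13660 CPM. Markers of spinal cord neurons, which also use several of these factors, summed to 4.85 to 7.99 CPM over 9 genes. Replicates 1 and 2 stand apart from replicates 3 and 4 in ribosomal RNA entries and in many genes, and the labels name no batch, so these 2 sets are not groups of the study.

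All 10 factors were detected at 1 CPM or more in all 4 libraries, a level that 26.5% of all listed genes reached. Together they held 665, 677, 542 and 574 CPM in replicates 1 to 4. Against the pan-neuronal markers this was 4.94, 4.96, 4.03 and 4.89 per 100 CPM of marker. Their levels spanned a wide range, from Tlx3 at 217 ± 64.4 CPM to Runx3 at 4.21 ± 1.12 CPM (SD, n = 4). The median of the 10 means was 35.4 CPM, beside 14.3 CPM over the 14817 genes that averaged 1 CPM or more (the tested genes). Of their summed reads, Tlx3 held 34.8% ± 6.87, Pou4f1 19.8% ± 8.64 and Runx1 15.2% ± 3.86, while Runx3 held 0.702% ± 0.253 (SD, n = 4). In whole ganglia, fewer cells that express a gene and less RNA per cell cannot be told apart.

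In GRCm38 with the GENCODE M21 annotation, the higher-ranked factors lay as follows: Tlx3 at chr11:33200752-33203589, Pou4f1 at chr14:104461676-104467999, Runx1 at chr16:92601466-92826149, Etv1 at chr12:38779380-38870484 and Isl1 at chr13:116298281-116309689. The others were Prdm12 at chr2:31640037-31655795, Pou4f3 at chr18:42394539-42397249, Drgx at chr14:32599407-32649246, Pou4f2 at chr8:78433010-78436645 and Runx3 at chr4:135120652-135177990. Tlx3, Pou4f1, Runx1, Isl1 and Pou4f2 are on the minus strand. The table has 1 value per gene and does not separate exons from UTRs.

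**Figure D1:**
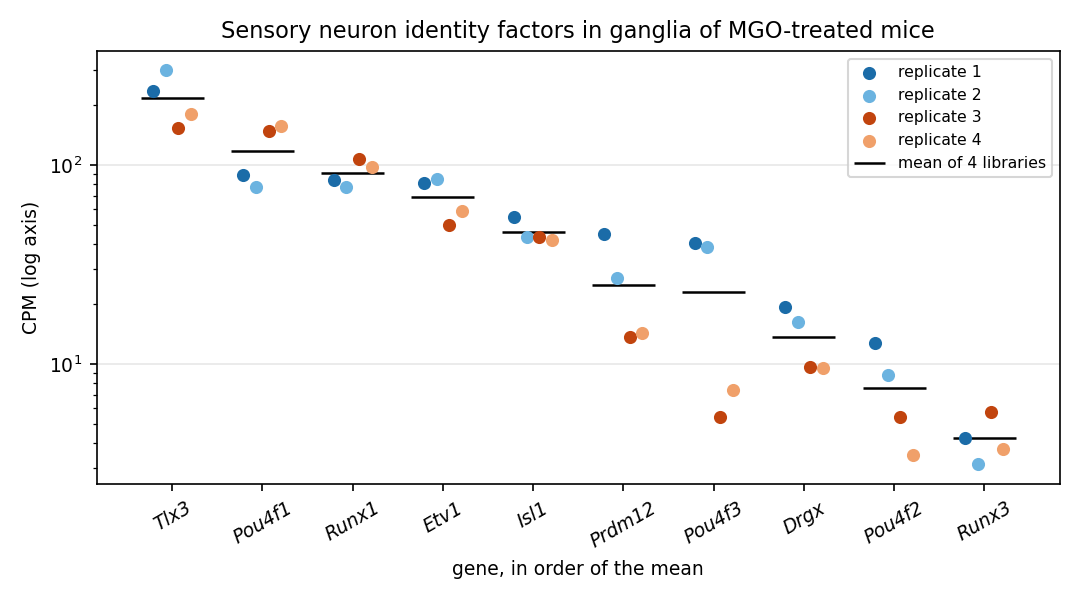
CPM (log axis) of the 10 identity factors in each of the 4 MGO libraries, ordered by the mean (black line). Tlx3 lies highest at 154 to 299 CPM and Runx3 lowest at 3.12 to 5.74 CPM, and Pou4f3 has the widest gap between replicates 1 and 2 and replicates 3 and 4.

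Tlx3, a homeobox factor of nociceptors and itch neurons, had 235, 299, 154 and 180 CPM in replicates 1 to 4, the highest mean of the 10. It exceeded Pou4f1 in 4 of 4 libraries, but the difference did not pass (0.90 ± 0.39 log2 units [SE], adjusted p = 0.0794 in limma). Over the other 8 factors it passed, from 2.30-fold over Runx1 (limma adjusted p = 0.00855) to 41.2-fold over Runx3 (limma adjusted p = 1.12e-06). Its mean was higher than that of 95.04% of the tested genes. Of all tested genes, 91.3% were called below Tlx3.

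Pou4f1 had 88.7, 77.5, 148 and 157 CPM. Runx1 had 84.1, 77.2, 107 and 98.1 CPM. Both were highest in replicates 3 and 4, and they stood too close to be ordered (0.30 ± 0.23 log2 units [SE], adjusted p = 0.266 in limma, Pou4f1 higher in 4 of 4 libraries). Isl1 had 54.5, 43.5, 43.2 and 41.9 CPM, the narrowest spread among the 10 relative to its mean of 45.8 ± 5.87 CPM. Pou4f1 exceeded Isl1 2.44-fold (1.29 ± 0.30 log2 units [SE], adjusted p = 0.00886 in limma, 4 of 4 libraries), so the 2 factors shared by nearly all sensory neurons were not at the same level in these reads.

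The sequence before the start site of 4 of these genes is shown for the factor with the highest mean, the 2 factors used by nearly all sensory neurons, and the nociceptor factor whose start overlaps an antisense gene. Each line gives the 250 bases upstream of the RefSeq start in GRCm38.p6, 5′ to 3′ on the gene's strand, with the homeodomain core TAAT or its reverse complement ATTA in capitals.
Tlx3 (chr11:33203589-33203838): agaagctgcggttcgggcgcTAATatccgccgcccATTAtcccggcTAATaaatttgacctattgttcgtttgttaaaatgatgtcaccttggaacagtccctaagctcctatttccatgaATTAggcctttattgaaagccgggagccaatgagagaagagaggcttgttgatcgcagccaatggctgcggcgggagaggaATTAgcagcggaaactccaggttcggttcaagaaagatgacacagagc
Isl1 (chr13:116309689-116309938): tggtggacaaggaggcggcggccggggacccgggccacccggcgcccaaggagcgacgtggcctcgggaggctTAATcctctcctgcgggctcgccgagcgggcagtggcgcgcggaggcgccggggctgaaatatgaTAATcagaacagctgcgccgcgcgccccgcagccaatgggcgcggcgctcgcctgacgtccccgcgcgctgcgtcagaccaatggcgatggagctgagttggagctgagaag
Pou4f1 (chr14:104468000-104468249): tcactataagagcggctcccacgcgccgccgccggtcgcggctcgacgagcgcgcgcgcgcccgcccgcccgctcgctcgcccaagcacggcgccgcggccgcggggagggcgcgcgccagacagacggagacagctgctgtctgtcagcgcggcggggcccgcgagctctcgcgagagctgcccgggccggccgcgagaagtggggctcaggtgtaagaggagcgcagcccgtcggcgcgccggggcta
Prdm12 (chr2:31639787-31640036): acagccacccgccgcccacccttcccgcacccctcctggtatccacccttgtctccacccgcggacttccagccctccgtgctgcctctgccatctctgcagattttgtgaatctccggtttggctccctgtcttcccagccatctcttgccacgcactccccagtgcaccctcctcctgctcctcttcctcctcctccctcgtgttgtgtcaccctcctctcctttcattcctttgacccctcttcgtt
Tlx3, Isl1 and Pou4f1 lie on the minus strand and Prdm12 on the plus strand. The Tlx3 window holds 5 cores, the Isl1 window 2, and the Pou4f1 and Prdm12 windows 0. Windows of this length before 32851 RefSeq starts of the mouse held at least 1 core in 54.9% of cases, against 5 of 12 windows of 9 of the 10 factors. The Pou4f1 window was 78.0% G and C and the Tlx3 window 48.8%, beside a median of 52.4% over all windows. A match is a description of letters and not a binding site.

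The RUNX genes have a distal and a proximal start, and RUNX proteins bind the core TGTGGT. In the distal Runx3 window this core occurs 2 times in its reverse complement ACCACA, shown in capitals below on the plus strand, and at least 1 copy stands in 3 of the 12 windows of the factors (this one, Drgx and the first Etv1 start), beside 14.05% of all windows.
Runx3 distal start (chr4:135120395-135120644): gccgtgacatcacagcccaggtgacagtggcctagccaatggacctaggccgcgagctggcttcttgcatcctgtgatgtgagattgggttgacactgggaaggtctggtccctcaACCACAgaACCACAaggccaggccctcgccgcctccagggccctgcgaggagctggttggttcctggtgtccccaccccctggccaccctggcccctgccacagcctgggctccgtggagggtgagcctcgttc
The proximal Runx3 window and both Runx1 windows held 0 copies. The table gives 1 value per gene, so the use of the starts was not measured.

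Of the nociceptor factors other than Tlx3, Runx1 had the highest mean in CPM, and Prdm12 and Drgx were lower. Prdm12, a PR-domain factor without which nociceptors do not form, had 44.98, 27.1, 13.6 and 14.3 CPM. Drgx, a paired-like homeodomain factor of nociceptors, had 19.3, 16.2, 9.68 and 9.55 CPM. For both genes, replicates 1 and 2 lay above replicates 3 and 4 without overlap. Runx1 exceeded Prdm12 3.96-fold (1.99 ± 0.38 log2 units [SE], adjusted p = 0.00426 in limma) and Drgx 6.52-fold (2.71 ± 0.29 log2 units [SE], adjusted p = 0.000302 in limma), each in 4 of 4 libraries. Prdm12 was above Drgx in 4 of 4 libraries, yet the difference did not pass (0.72 ± 0.42 log2 units [SE], adjusted p = 0.113 in limma). It did without moderated variance (adjusted p = 0.0347) and per kb of exonic length (1.41 log2 units, adjusted p = 0.00446 in limma). The order of Runx1 and Prdm12 depends on the scale: per kb of exonic length their difference was -0.24 ± 0.45 log2 units [SE] and did not pass (limma adjusted p = 0.636). The first exon of Prdm12 overlaps the antisense gene Gm13425, which had 3.75, 2.12, 3.77 and 4.43 CPM, and whether reads were counted by strand is not given in the sources used.

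The proprioceptor factors lay far apart. Etv1, an ETS-domain factor, had 81.1, 85.5, 50.2 and 59.0 CPM. Runx3 had 4.24, 3.12, 5.74 and 3.74 CPM, which stand for 43, 28, 32 and 27 reads. The exact 95% Poisson intervals of the Runx3 values ran from 2.07 to 4.51 CPM in replicate 2 and from 3.92 to 8.10 CPM in replicate 3 and cover counting error only. Etv1 exceeded Runx3 13.3-fold (3.74 ± 0.28 log2 units [SE], adjusted p = 1.57e-05 in limma), and Runx1 exceeded Runx3 17.9-fold (4.16 ± 0.16 log2 units [SE], adjusted p = 4.11e-06 in limma), each in 4 of 4 libraries. Runx1 and Runx3 are also used by blood cells. Myeloid markers averaged at least 1 CPM in 8 of 8 genes, led by C1qa, Aif1 and Cx3cr1, and 6 of 8 were detected in all 4 libraries. Their sums were 244, 293, 177 and 174 CPM, most of it from C1qa (167, 209, 118 and 122 CPM). The pan-leukocyte gene Ptprc had 5.82, 6.24, 8.61 and 7.48 CPM. The 8 T, B and NK cell markers summed to 0.446 to 0.789 CPM, with Cd4 and Ncr1 at 0 in every library. The part of blood cells in the Runx1 and Runx3 levels was not tested.

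The 3 genes of the POU4F family were ordered Pou4f1, Pou4f3 and Pou4f2. Pou4f3, known best from hair cells of the inner ear, had 40.6, 38.9, 5.38 and 7.34 CPM. Pou4f2, known best from retinal ganglion cells, had 12.7, 8.80, 5.38 and 3.46 CPM. Both were lower in replicates 3 and 4, in which Pou4f1 was higher. Pou4f1 exceeded Pou4f2 14.4-fold (3.85 ± 0.48 log2 units [SE], adjusted p = 0.000544 in limma) and Pou4f3 6.58-fold (2.72 ± 0.74 log2 units [SE], adjusted p = 0.0163 in limma), each in 4 of 4 libraries. The call over Pou4f3 was lost without moderated variance (adjusted p = 0.0909), per kb of exonic length (adjusted p = 0.0763) and without replicate 4 (adjusted p = 0.0515, 2.21 log2 units). Pou4f3 and Pou4f2 did not differ beyond their spread (1.13 ± 0.70 log2 units [SE], adjusted p = 0.137 in limma, Pou4f3 higher in 3 of 4 libraries). Of the summed POU4F reads, Pou4f1 held 62.4%, 61.9%, 93.2% and 93.6% in replicates 1 to 4, and Pou4f3 held 28.6%, 31.0%, 3.39% and 4.38%.

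**Figure D2:**
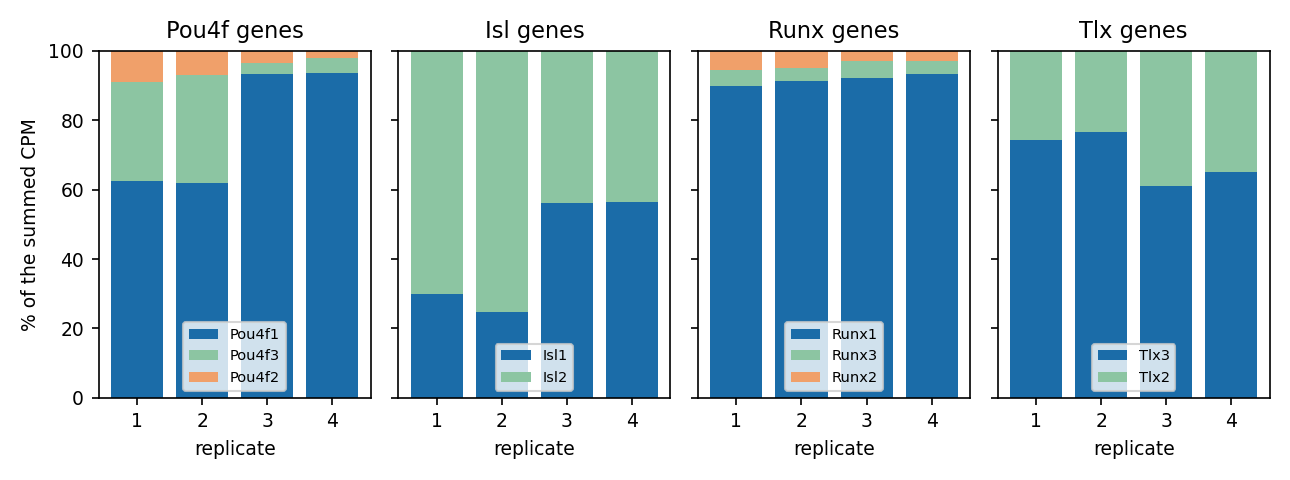
Share (%) of each gene in the summed CPM of its family in each of the 4 libraries, for the Pou4f, Isl, Runx and Tlx genes. Pou4f1 takes 61.9% to 93.6% of its family, Runx1 stays at 89.9% to 93.4%, and Isl1 takes 24.8% to 56.5%.

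Of the 45 pairs that the 10 factors form, 35 passed, and the higher factor was above in 4 of 4 libraries for 38. The same test called 77.7% of all comparisons between a factor and another gene of the table, so the share among the factors was near the background. A pair was called when its adjusted p was under 0.05 in the fits of both of its genes, with p-values adjusted by Benjamini-Hochberg over 148160 tests in limma, and the larger p of the 2 fits is printed. In a fit, every gene is set against the same factor and shares its spread, so the moderated variance is not independent evidence. With the variance of each pair alone, 29 pairs passed at a background of 66.7%, and 28 of these were among the 35.

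**Figure D3:**
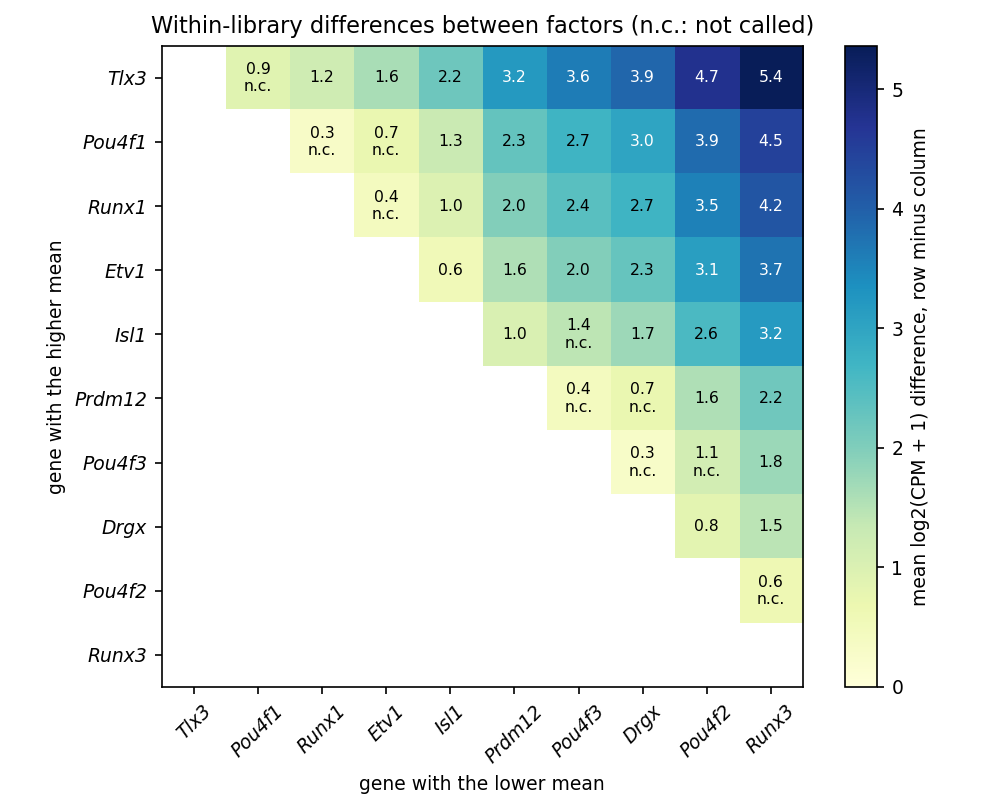
Mean within-library difference of log2(CPM + 1) for each of the 45 pairs of factors, row minus column, with the gene of the higher mean in the row (n.c. marks the 10 pairs not called by limma). Differences broadly grow from the diagonal to the corner, where Tlx3 minus Runx3 is 5.36.

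In the order of the means, Tlx3, Pou4f1, Runx1, Etv1, Isl1, Prdm12, Pou4f3, Drgx, Pou4f2 and Runx3, only 3 of 9 neighbouring pairs passed. These were Etv1 over Isl1 (0.55 ± 0.21 log2 units [SE], adjusted p = 0.0462 in limma), Isl1 over Prdm12 (1.01 ± 0.42 log2 units [SE], adjusted p = 0.0302 in limma) and Drgx over Pou4f2 (0.84 ± 0.35 log2 units [SE], adjusted p = 0.0389 in limma), each higher in 4 of 4 libraries. These calls were fragile: with 1 library left out, 0 to 1 neighbouring pairs passed in limma, 0 without replicate 2 and 0 without replicate 4 (also 0 at an unadjusted p under 0.05), and 1 without replicate 1 or replicate 3. The remaining neighbours did not differ beyond their spread, among them Runx1 and Etv1 (0.43 ± 0.26 log2 units [SE], adjusted p = 0.179 in limma), Prdm12 and Pou4f3 (0.43 ± 0.69 log2 units [SE], adjusted p = 0.578 in limma), Pou4f3 and Drgx (0.29 ± 0.70 log2 units [SE], adjusted p = 0.709 in limma) and Pou4f2 and Runx3 (0.62 ± 0.39 log2 units [SE], adjusted p = 0.156 in limma).

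Were the reads spread along transcripts, levels would have to be divided by exonic length, which was 1533 bases for Tlx3, 4672 for Pou4f1, 3959 for Isl1, 12025 for Runx1 and 13296 for Etv1. On that scale, CPM per kb rescaled to 1000000, Tlx3 stayed highest at 395 ± 129, Pou4f1 followed at 69.2 ± 21.7 and Runx3 stayed lowest at 2.33 ± 0.593 (SD, n = 4). The signs of 5 of the 45 pairs turned, all of them pairs called in CPM with Runx1 or Etv1 as the higher gene. Isl1, Prdm12 and Pou4f3 had means of 32.1 ± 4.78, 28.3 ± 17.2 and 27.1 ± 23.1, above Runx1 at 21.0 ± 2.52 and Etv1 at 14.4 ± 3.99. Of the 5, 2 were called in the turned direction, Runx1 minus Isl1 at -0.58 (limma adjusted p = 0.0343) and Etv1 minus Isl1 at -1.13 (limma adjusted p = 0.00259). Runx1 minus Prdm12, Etv1 minus Prdm12 and Etv1 minus Pou4f3 turned without a call (limma adjusted p = 0.636, 0.0973 and 0.627), while 26 pairs were called on both scales in the same direction. Some pairs that did not pass in CPM passed per kb in limma: Tlx3 minus Pou4f1 at 2.49 (adjusted p = 0.00202), Pou4f1 minus Runx1 at 1.63 (adjusted p = 0.0013) and Pou4f2 minus Runx3 at 1.08 (adjusted p = 0.0237). So did Pou4f1 minus Etv1 at 2.17 (limma adjusted p = 0.00274) and Prdm12 minus Drgx at 1.41 (limma adjusted p = 0.00446).

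Several factors had a family relative at a similar or higher level. Isl2, the paralogue of Isl1, had 127, 132, 33.7 and 32.3 CPM, above Isl1 in replicates 1 and 2 and below it in replicates 3 and 4. The difference between them did not pass (Isl1 minus Isl2 -0.52 ± 0.38 log2 units [SE], adjusted p = 0.249 in limma), though it did per kb (Isl2 minus Isl1 1.35 log2 units, adjusted p = 0.0212 in limma). Tlx2, a factor best known from enteric neurons, had 81.7, 91.2, 98.1 and 97.2 CPM and lay below Tlx3 in 4 of 4 libraries (Tlx3 minus Tlx2 1.19 ± 0.28 log2 units [SE], adjusted p = 0.00324 in limma), while Tlx1 was listed at 0 throughout. Etv5 had 488, 609, 219 and 190 CPM and was the relative that most exceeded its factor (Etv1 minus Etv5 -2.29 ± 0.25 log2 units [SE], adjusted p = 0.00012 in limma, Etv1 lower in 4 of 4 libraries). Runx2, the bone factor, had 3.99 ± 0.92 CPM and lay below Runx1 18.6-fold (Runx1 minus Runx2 4.22 ± 0.22 log2 units [SE], adjusted p = 1.23e-05 in limma).

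**Figure D4:**
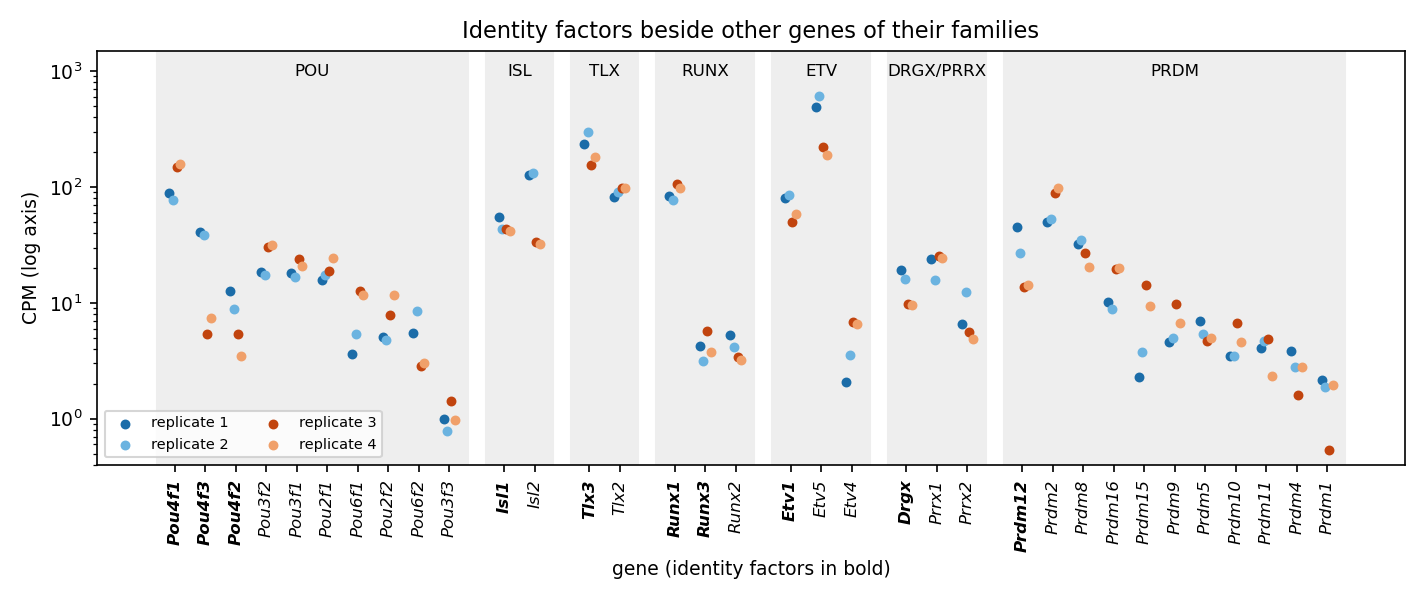
CPM (log axis) in each of the 4 libraries for the identity factors (bold) and the family relatives with a mean of at least 1 CPM. Etv5 lies above Etv1, Isl2 straddles Isl1, and the other POU genes lie below Pou4f1.

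Of 29 family relatives, 24 had a mean of at least 1 CPM, and 18 of these were called below the factor of their family and 2 above it. A gene was called below the factor it was set against in 53.9% of all tests. The share depends on the level of the factor, 80.3% called below for Pou4f1 and 46.1% for Prdm12. All 7 tested POU genes outside the POU4F family were called below Pou4f1, the nearest being Pou3f2 at 24.4 ± 7.48 CPM (Pou4f1 minus Pou3f2 2.21 ± 0.20 log2 units [SE], adjusted p = 0.00013 in limma). Among the PRDM genes, Prdm2 had 72.2 ± 24.5 CPM and exceeded Prdm12 (Prdm12 minus Prdm2 -1.60 ± 0.45 log2 units [SE], adjusted p = 0.00169 in limma, Prdm12 lower in 4 of 4 libraries). That call was lost without moderated variance (adjusted p = 0.111) and per kb (Prdm2 minus Prdm12 0.05 log2 units, adjusted p = 0.922). Prdm8 at 28.6 ± 6.42 CPM and Prdm16 at 14.7 ± 5.98 CPM did not differ from Prdm12 beyond the spread (limma adjusted p = 0.479 and 0.187). Prrx1, a mesenchymal homeodomain factor, had 22.3 ± 4.48 CPM, which did not differ from Drgx beyond the spread (limma adjusted p = 0.0693). Tlx1, Prdm13 and Prdm14 were listed at 0 in every library. A count of 0 allows up to 3 reads, which is 0.538 CPM in the shallowest library.

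Most factors differed between the 2 sets of libraries. Replicates 1 and 2 did not overlap with replicates 3 and 4 for 9 of the 10, beside 78.5% of the tested genes. A gap of at least 2-fold without overlap was found for 3 of 10, beside 37% of all these genes. Prdm12 (36.0 CPM in replicates 1 and 2 against 13.9 CPM in replicates 3 and 4), Pou4f3 (39.8 against 6.36 CPM) and Pou4f2 (10.8 against 4.42 CPM) were all higher in replicates 1 and 2, as were 24.1% of the tested genes, while 12.8% were higher in replicates 3 and 4 by this rule. The factors were thus not set apart from other genes by this count.

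The size of the gap varied from gene to gene. The log2 ratio of replicates 1 and 2 over replicates 3 and 4 was 2.64 for Pou4f3, 1.37 for Prdm12, 1.28 for Pou4f2, 0.88 for Drgx, 0.68 for Tlx3 and 0.61 for Etv1. It was 0.20 for Isl1, whose values in replicates 2 and 3 differed by less than 1 CPM, and -0.34 for Runx1, -0.36 for Runx3 and -0.87 for Pou4f1. The median of the tested genes was 0.18, so Isl1 moved about as the median gene did. No sign turned under any of the scalings tried. When the ribosomal RNA entries were left out of the totals, the median gene moved up by 0.12 and 0.15 on the log2 scale in replicates 3 and 4, and Pou4f1 joined the genes with a 2-fold gap, at 83.1 CPM in replicates 1 and 2 against 169 CPM in replicates 3 and 4. Relative to the sum of the pan-neuronal markers, the same 3 genes had the gap, with a log2 ratio of 2.52 for Pou4f3, 1.26 for Prdm12 and 1.19 for Pou4f2. The markers in that sum moved in both directions. Nefl had 2524 CPM in replicates 1 and 2 against 1171 CPM in replicates 3 and 4, and Prph 938 against 1729 CPM. Across 14754 genes the log2 ratio went weakly with exonic length (Spearman's rho -0.25) and with GC content (rho 0.24), a description of genes within the same 4 libraries. Pou4f3 and Prdm12 have exonic lengths of 2399 and 2471 bases, below the median of 4331. Glial markers moved with the gap: the 8 Schwann cell markers summed to 28957 and 27882 CPM in replicates 1 and 2, and to 16157 and 15923 CPM in the other two, and the 6 satellite glia markers to 1302 and 1245 CPM against 672 and 615 CPM. The 6 blood markers summed to 726 and 840 CPM against 195 and 232 CPM, most of it from Hba-a1 (592 and 700.3 CPM against 156 and 196 CPM), whereas Alas2 was lower in replicates 1 and 2 (8.09 and 4.46 CPM against 16.9 and 11.8 CPM). Over the 4 libraries, fibroblast markers summed to 1213 to 1818 CPM, endothelial and mural markers to 158 to 176 CPM and glial markers of the central nervous system to 6.51 to 8.79 CPM. The part of gene features and of other cells in the gap was not tested.

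**Figure D5:**
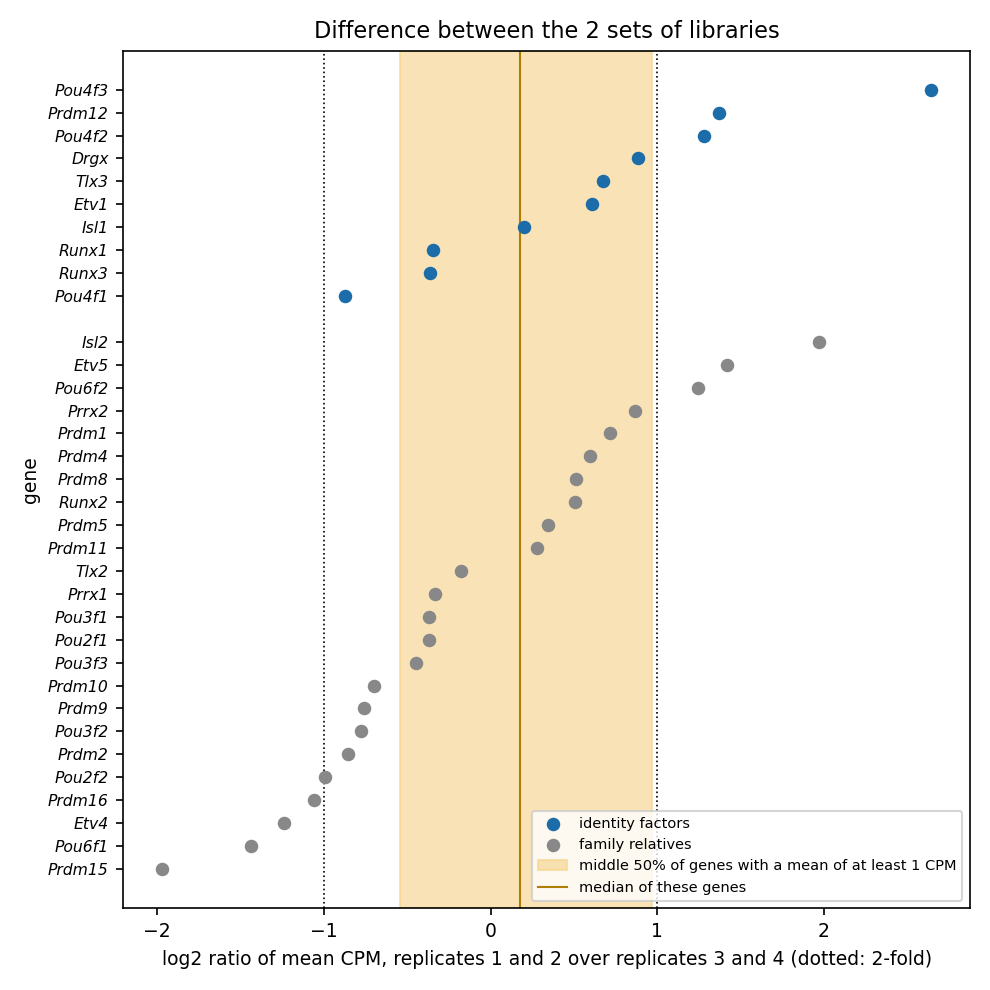
Log2 ratio of mean CPM in replicates 1 and 2 over replicates 3 and 4 for the 10 identity factors and their relatives with a mean of at least 1 CPM, with the middle 50% of all such genes shaded. Pou4f3 has the largest ratio shown at 2.64 and Isl1 sits at 0.20 beside the median gene at 0.18.

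Proteins that work with these factors were detected in 17 of 18 genes, with a median of 43.2 CPM. The leading members were Aes at 251 ± 70.4 CPM and Tle1 at 117 ± 17.3 CPM, whose families hold corepressors of RUNX proteins, and Ssbp3 at 249 ± 70.5 CPM, a stabiliser of LIM factor complexes. Cbfb, the partner that RUNX proteins need to bind DNA firmly, had 140, 111, 64.9 and 61.2 CPM, higher in replicates 1 and 2, whereas Runx1 was higher in replicates 3 and 4. For ISL1, the adaptor gene Ldb2 had 104 ± 9.4 CPM and its relative Ldb1 4.74 ± 1.36 CPM. For PRDM12, which recruits the histone methyltransferase G9a (Ehmt2), the partner enzyme genes Ehmt1 and Ehmt2 had 86.9 ± 30.9 and 35.01 ± 15.5 CPM.

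Of 38 other transcription factors of the sensory lineage, 32 were detected in all 4 libraries, with a median of 23.0 CPM over the 38. Nfia at 399 ± 16.5 CPM, Zfhx3 at 347 ± 69.8 CPM and Klf7 at 327 ± 58.0 CPM had the highest means of this list. Likeness in level over the 4 libraries was measured as the root mean square difference in log2(CPM + 1). Drgx lay nearest to Meis2 at 0.14, Runx1 to Nfib at 0.17, Pou4f1 to Ebf3 at 0.20, Etv1 to Six4 at 0.22, Runx3 to Onecut1 at 0.32, Pou4f2 to Eya2 at 0.50 and Tlx3 to Maf at 0.59. Prdm12 and Pou4f3 had no close neighbour in this list, with the nearest at 0.79 (Cux1) and 1.01 (Meis2). Isl1 lay at 0.34 from Shox2. Second nearest were Nfib for Pou4f1 (0.27), Tshz2 for Runx1 (0.40), Foxs1 for Drgx (0.81), Meis1 for Runx3 (0.32), Zeb2 for Tlx3 (0.60), Meis2 for Prdm12 (0.88), and Esrrg for both Pou4f2 (0.62) and Pou4f3 (1.29).

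Genes tied to these factors, or to the neurons for which they are known, were measured in the same libraries. Of 8 genes that lose expression in nociceptors of Runx1 mutant mice, 7 were detected in all 4 libraries, led by Ret at 288 ± 93.2 CPM, Scn11a at 201 ± 123 CPM and P2rx3 at 21.2 ± 13.4 CPM. With the 2-fold gap between the library sets, 4 of the 8 were higher in replicates 1 and 2, beside 24.1% of the tested genes, and 1 in replicates 3 and 4, beside 12.8%. Among the neurotrophic receptor genes, Ret was followed by Gfra2 at 172 ± 87.1 CPM and Ntrk2 at 75.1 ± 6.35 CPM. Gfra2 was higher in replicates 1 and 2 by this rule, with 244, 250, 92.2 and 100.2 CPM in replicates 1 to 4. Of 6 proprioceptor genes, 5 were detected in all 4 libraries. Pvalb had 172, 176, 89.1 and 73.8 CPM, Spp1 71.7 ± 13.4 CPM and Ntrk3 66.7 ± 3.49 CPM, beside Runx3 at 4.21 ± 1.12 CPM. Heg1 had 18.7 ± 2.24 CPM, Cdh13 5.39 ± 2.75 CPM and Lmcd1 1.19 ± 0.53 CPM, the last with a mean below that of Runx3. These genes are given side by side, and with 4 libraries no correlation was computed.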

How the data were processed

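RNA of 4 dorsal root ganglion libraries was depleted of ribosomal RNA and read from transcript 3′ ends with a QuantSeq kit, per the labels' protocols. Cufflinks 2.2.1, Bowtie2 2.2.9, TopHat2 2.1.1 and FastQC 0.11.5 are named in the submitters' processing notes, with no role, as are the builds GRCm38.p4 and mm10. The annotation, and whether counting used strand, is not given in the sources used here. Values as deposited are headed TPM but were used as CPM, because each library sums to 1000000 and at least 98.277% of values above 0 lie within 0.05 of a whole multiple of 1 step per library. Low members were turned into reads with this step, and no count model was run because other values are fractions of a step.

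The members and lists, and the sets of libraries, were chosen with earlier results of these data known. Drgx was found as Prrxl1 through RefSeq synonyms. Positions, overlaps and exonic lengths came from GENCODE M21 (GRCm38), in which 99.2% of genes had an entry. Promoter windows came from RefSeq (GRCm38.p6) for 9 of the 10 members. Member windows on chromosome 18, where Pou4f3 lies, were left out, and the windows of all starts were not filtered in this way. For each member, the within-library difference of log2(CPM + 1), gene minus member, was fitted for the 14817 genes averaging 1 CPM or more (limma 3.58.1, R 4.3.3, intercept only, two-sided) and adjusted by Benjamini-Hochberg over all 148160 tests. A pair of members has a fit in each direction, and the choice of the larger p was made after seeing the data. Folds were back-transformed from log2(CPM + 1), so those of low genes are too small. The rule for named genes took all members, the 3 highest of each list, called relatives, the 2 nearest factors and markers at 0. Cbfb, Ldb1, Ldb2, Ehmt1, Ehmt2, Ptprc, Hba-a1, Alas2, Heg1, Cdh13, Lmcd1, Nefl, Prph, uncalled relatives and Gm13425 were named after their values were seen. Alternatives were each replicate left out, a pseudocount of 0.1, other filters and scalings, levels per kb, the library sets as a term or as means, and unmoderated variance. The unmoderated variance and the scaling to pan-neuronal markers were chosen after seeing the data. Some genes that the rule names are not reported here. Python 3.11.15 was used with pandas 2.3.3, numpy 2.4.6 and scipy 1.17.1.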

Additional observations from a re-analysis of the deposited data

Results flagged for a closer look

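Among the 10 factors and 29 relatives, 4 genes had a library far from the other 3 by Dixon's criterion, which chance meets in about 1 of 20 groups. Isl1 was high in replicate 1 at 54.5 CPM, with a gap of 0.88 of its range. Prrx1 was low in replicate 2 at 15.6 CPM (0.844 of the range), and Prdm1 low in replicate 3 at 0.538 CPM (0.831). Pou3f4 was high in replicate 2 at 0.557 CPM (0.859), a level of a few reads.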

How the results depend on the processing

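No paired analysis was possible because there is 1 group. Of 45 pairs, 35 passed as reported, beside 77.7% of all tests, and 29 without moderated variance, beside 66.7%. With a replicate left out 29 to 33 passed, on means of the 2 library sets 24, and with the set as a term 43. Per kb 33 passed (5 pairs turned sign), and at a pseudocount of 0.1, 34 did. The share of all tests was computed only for the reported and unmoderated fits, so the other counts have no background. With a minimum mean of 10 CPM, 20 of 28 fitted pairs and 4 relatives passed, since fewer genes were fitted. Relatives called below their factor numbered 16 to 18 with a replicate left out and 15 without moderated variance. Neighbouring pairs passed in 3 cases as reported, 0 to 1 with a replicate left out, 7 with the library set as a term, 0 on set means (limma, also 0 at an unadjusted p under 0.05) and 1 without moderated variance. The log2 difference of Etv1 minus Isl1 turned to -1.13 per kb and that of Runx1 minus Prdm12 to -0.24, where exonic length enters, and Pou4f3 minus Drgx ran from -0.0165 to 0.637 with a replicate left out. At a 1.5-fold gap, 7 factors differed between the sets in place of 3, and the share of all genes at this fold was not computed. After rescaling without ribosomal RNA or by median-of-ratios factors, 4 had the 2-fold gap, beside 36.4% and 36.5% of the tested genes. All 10 factors were detected under every alternative run. Tlx3 minus Runx1 (adjusted p = 0.0554), Pou4f1 minus Isl1 (0.117), Tlx3 minus Tlx2 (0.0507) and Prdm2 minus Prdm12 (0.0546) were lost on set means, a fit with 1 residual degree of freedom. The cause of the changed calls was not tested. Counting error limits Runx3 and Pou4f2, with 27 to 43 and 25 to 129 reads per library.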
